A study of Drosophila melanogaster with 2 samples.

Results

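Binding of Sens-2 at the genes of the Drosophila cell death pathway was examined in 10 of the 13968 annotated protein-coding genes: rpr, hid, grim, skl, Diap1, Dark, Dronc, Drice, Dcp-1 and p53. They were taken as a list of core apoptosis genes, by a rule that uses no peak value. Earlier results of these data were known when they were chosen. The domain of a gene was its body with 2 kb upstream, and summits between hid, grim, rpr and skl, which neighbour each other on chromosome 3L, were taken as well. Sens-2 belongs to the Senseless family of zinc-finger transcription factors. The data were chromatin immunoprecipitation and sequencing (ChIP-seq) peak lists from whole embryos of 0 to 24 h, of the strain sens-2-GFP, which carries an insertion that makes a sens-2-eGFP fusion. Chromatin sheared by sonication to 200 to 800 bp was precipitated with an antibody to GFP. There were 2 biological replicates in 1 group, both of the same strain, and neither another condition nor a control library was analysed here. Each sample pooled whole animals of unrecorded sex over all of embryogenesis, so a peak cannot be assigned to a cell type or stage.

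In flies, the proteins Rpr, Hid, Grim and Skl start cell death by binding Diap1, an inhibitor of apoptosis that otherwise keeps caspases in check. Freed from Diap1, the initiator caspase Dronc assembles with the adaptor Dark and cleaves the effector caspases Drice and Dcp-1, which dismantle the cell. The transcription factor p53 turns on rpr and other death genes after DNA damage. Senseless, the better known relative of Sens-2, is required for survival of the embryonic salivary gland, where its loss is accompanied by expression of rpr and hid.

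Hid, Diap1 and p53 were the members with Sens-2 summits in their domains. By count, the long stretch of sequence between hid and rpr held more summits than all member domains together. Per Mb it was not richer than the domain of hid, which had 100.5 against 78.2 between hid and grim. In the conservative list, which holds peaks reproducible across both replicates, 3 of the 10 members (30%) had a summit in their domain, against 17.9% of all protein-coding genes. Of these summits, 3 lay in Diap1, 2 in hid and 1 in p53. The domains of rpr, grim, skl, Dark, Dronc, Drice and Dcp-1 held 0. Long domains catch more summits: the 2 members with domains of at least 10 kb, hid and Diap1, were both among them, against 38.4% of such genes, while 1 of the 8 members with shorter domains was, against 13.8%. No test was run, since the list was short and there was 1 group.

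The peaks carried a signal value and a score from 0 to 1000, both the authors' own. Signal has its own scale in each list and was compared within a list. The score is made from the irreproducible discovery rate (IDR), and 830 was the lowest score in the thresholded lists, an IDR of 0.01. On assembled chromosomes, the conservative list had 2883 peaks with a median signal of 78.6, replicate 1's own thresholded list had 1960 and replicate 2's had 1636. Ranked lists, which also hold peaks below the threshold, had 142231 peaks where the replicates were compared, 117153 in replicate 1 and 93828 in replicate 2. The read depth of the libraries is unknown from peak lists.

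The RHG genes, named for rpr, hid and grim, lie in a region with many Sens-2 summits, most of them between the genes. From hid (FBgn0003997, 3L 18167745 to 18185641) through grim (FBgn0015946, 18302719 to 18304417) and rpr (FBgn0011706, 18397535 to 18398435) to skl (FBgn0036786, 18438561 to 18439942), with 2 kb beyond skl, the region spanned 274 kb of dm6. All 4 genes are transcribed towards lower coordinates. The region held 13 summits of the conservative list, of which 2 were in the domain of hid and 11 between the genes. This came to 47.4 summits per Mb, against 22.3 per Mb over chromosome 3L. Of 480 windows of the same length laid end to end along the long chromosome arms, 8.33% held at least 13 summits. The median window held 6 and the highest 40. These comparisons take in long stretches without summits. All windows of 3L from 23032633 on and of 3R up to 4112970 held 0. So did those of 2R up to 4387168 and of 2L from 22210039 on. Leaving such stretches out, which was not done, would raise both the rate of 3L and the 8.33%. Among all windows the region was thus richer in summits than most, with 40 windows as rich or richer.

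**Figure D1:**
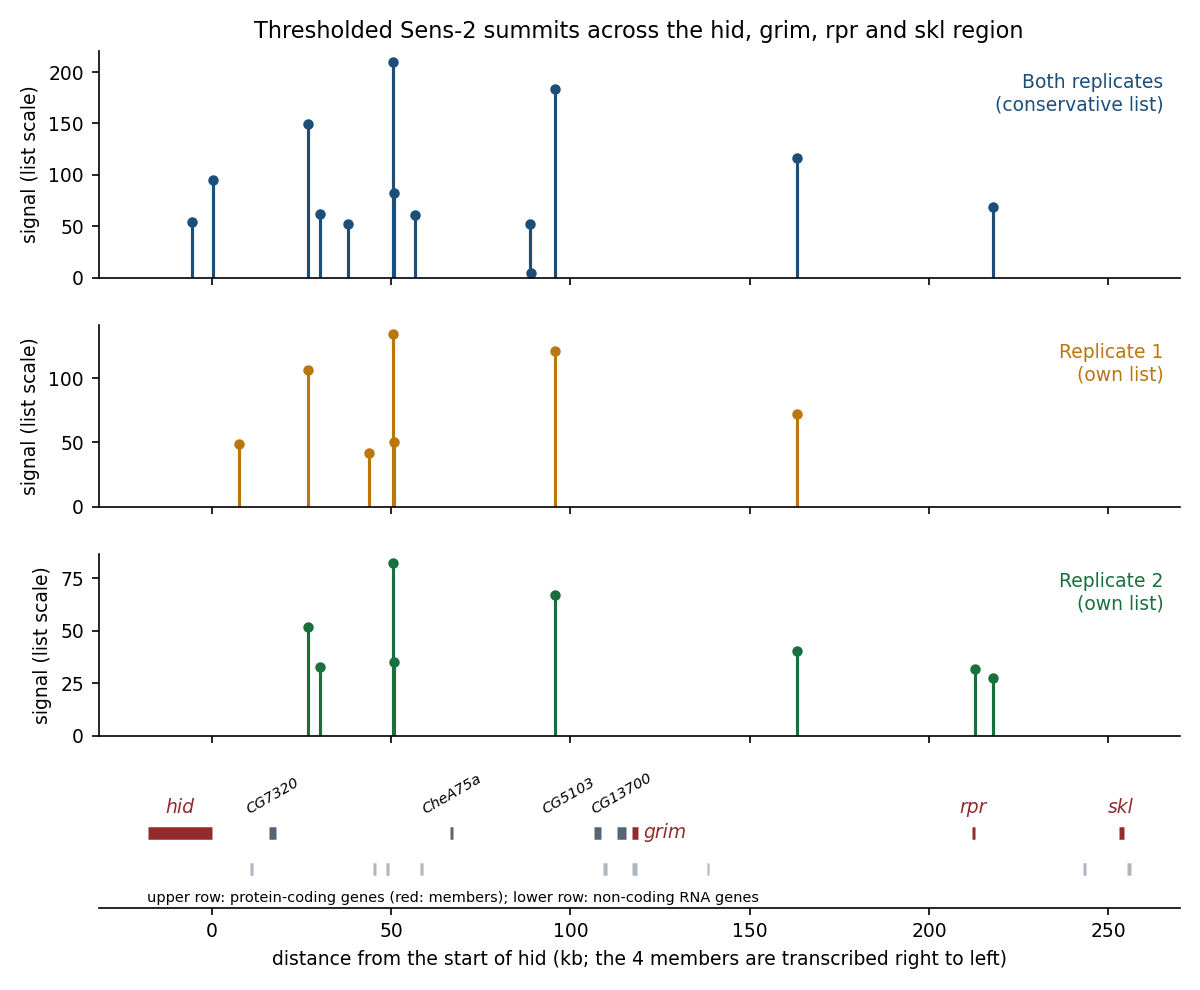
Signal of each thresholded summit (vertical axis, on the scale of its own list) against its distance in kb from the start of hid, for the conservative list and for each replicate's own list, with the annotated genes below. The 9 summits between hid and grim stand out against 1 between grim and rpr and 1 between rpr and skl, and the 4 tallest in the conservative list, at 26.7, 50.4, 95.8 and 163 kb, have a counterpart in both replicates.

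The strongest summits of the region lay far from the 4 death genes. The sequences below are the 101 bp around the 3 strongest and around both hid summits, and for rpr a longer stretch. They are from the plus strand of Release 6, 5′ to 3′, and capitals mark a motif described further on: AAATCA (read here as its reverse complement) in the hid intron, GATAAG in the summit 26.7 kb from hid, and a match to the p53 consensus in the rpr stretch.
summit 50.4 kb upstream of hid, chr3L:18235975-18236075: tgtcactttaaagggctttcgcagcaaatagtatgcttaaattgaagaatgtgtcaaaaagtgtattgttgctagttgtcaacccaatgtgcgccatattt
summit 95.8 kb upstream of hid, chr3L:18281344-18281444: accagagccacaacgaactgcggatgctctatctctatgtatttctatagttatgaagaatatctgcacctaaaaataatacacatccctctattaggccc
summit 26.7 kb upstream of hid, chr3L:18212334-18212434: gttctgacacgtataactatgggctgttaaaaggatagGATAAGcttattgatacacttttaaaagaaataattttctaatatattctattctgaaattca
hid promoter summit, chr3L:18185922-18186022: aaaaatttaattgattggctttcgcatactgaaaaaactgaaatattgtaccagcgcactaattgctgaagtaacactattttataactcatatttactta
hid intron summit, chr3L:18179923-18180023: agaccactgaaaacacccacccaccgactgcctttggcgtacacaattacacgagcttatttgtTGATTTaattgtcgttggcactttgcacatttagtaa
rpr upstream site and summit, chr3L:18403237-18403419: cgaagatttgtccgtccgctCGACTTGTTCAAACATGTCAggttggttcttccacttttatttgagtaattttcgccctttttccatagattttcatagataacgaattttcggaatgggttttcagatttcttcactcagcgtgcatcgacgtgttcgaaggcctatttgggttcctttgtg

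The summit at 18236025, 50.4 kb upstream of the start of hid, had a signal of 210.2 and rank 234 of the conservative list, with 8.08% of peaks above it. Its peak was narrow, from 18235963 to 18236086, and the nearest annotated start was that of the non-coding gene lncRNA:CR45937, 1265 bp away. Replicate 1 gave it a signal of 134.7 and replicate 2 a signal of 82.3, each with a score of 1000. A second summit followed at 18236496, with a signal of 81.9 in the conservative list, 50.6 in replicate 1 and 35.3 in replicate 2. Both lie in the domain of lncRNA:CR45937.

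Second in the region was the summit at 18281394, with a signal of 184 and rank 308. It lay 95.8 kb upstream of hid and 23.0 kb beyond the start of grim, in the direction of transcription, with CG5103 the gene of nearest start at 12868 bp. Its own-list signals were 121 in replicate 1 and 66.9 in replicate 2. The summit at 18212384, 26.7 kb upstream of hid, had 149.5 in the conservative list, 106.7 in replicate 1 and 51.7 in replicate 2, and its nearest start was that of CG7320 at 10890 bp. These 3 were above the list's median signal of 78.6 and past the threshold in each replicate.

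Between grim and rpr, 91.1 kb held a single summit. It lay at 18348744, 44.3 kb upstream of the start of grim, with a signal of 116 in the conservative list, 72.4 in replicate 1 and 40.1 in replicate 2, and its nearest start was that of lncRNA:CR46353 at 24759 bp. It scored 1000 in all 3 lists. The distance to the next summit, near rpr, was not the widest gap: the summits either side of grim were 67.35 kb apart, against a median spacing of 7.32 kb in the region. The remaining summits between hid and grim were weaker, with signals of 62.2 at 18215798 (nearest start CG7320), 52.3 at 18223673 (lncRNA:CR45935), 61.0 at 18242275 (lncRNA:CR45936), and 52.3 and 4.05 at 18274412 and 18274620 (CG5103). The last pair are overlapping peaks, and each replicate's ranked list has 1 peak that overlaps both. Summits between hid and grim thus ran from among the weakest to a rank of 234.

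Hid itself, a mitochondria-associated antagonist of Diap1, had summits at its promoter and in an intron. The promoter summit, at 18185972, lay 331 bp upstream of the start with a signal of 95.1, with 37.1% of the list above it and a score of 1000. The intron summit, at 18179973, lay 5668 bp inside the gene with a signal of 53.7 and a score of 866. Neither passed the threshold in a single replicate. Of all 2883 conservative summits, 30.1% were likewise overlapped by no thresholded peak of either replicate. At the promoter, replicate 1 had a signal of 67.2 with a score of 774 and replicate 2 a signal of 27.3 with a score of 534, and at the intron the scores were 337 in replicate 1 and 440 in replicate 2. A second thresholded list across both replicates had the intron summit but not the promoter summit, and had one in the first coding part of hid, at 18185025, with a signal of 50.7 and a score of 852. The promoter and coding peaks do not overlap, so the lists differed in which of these 2 passed the threshold, while both had the intron summit. Where the replicates were compared, the coding peak scored 801, short of the threshold.

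Rpr had no summit in its domain in the conservative list, but the nearest one, at 18403399, was 4964 bp upstream of its start. It had a signal of 68.6 and a score of 1000 in the conservative list. In replicate 1 the signal was 40.6 with a score of 810, short of the threshold, and in replicate 2 it was 27.6 with a score of 940. The replicates differed more at the rpr start itself. Replicate 2 had a thresholded peak with its summit 19 bp from the start, at 18398416, with a signal of 31.7, a score of 863 and rank 1459 of its 1636 peaks. No ranked peak of replicate 1, and none of the list comparing the replicates, had a summit in the rpr domain.

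The peak upstream of rpr, 18403251 to 18403546, held a sequence like a p53 binding site. In the stretch shown above, the capitals mark 20 letters at 18403257 to 18403276 that match 18 of 20 letters of the p53 consensus, a tandem pair of decamers. The site lay 4.82 kb upstream of the start of rpr and 123 bp from the summit, near the edge of the peak. The peak of replicate 2, 18403298 to 18403553, began beyond it, so the site is outside that peak. One other match of this quality was found in the region, at 18425408 to 18425428, 22009 bp from the nearest summit. Over the whole conservative list, 13 of 2883 summits (0.451%) had such a match within 150 bp, and this was 1 of the 17 summits of the member domains and the region. The search was added with the position of the summit known, and a match of letters says nothing on p53 binding in these embryos.

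Grim and skl, the other RHG genes, had little at their starts. The nearest conservative summit was 23.0 kb from the start of grim, and 63.5% of protein-coding genes had one nearer. For skl the distance was 36.5 kb, and 76.2% of genes had a nearer one. Grim had 3 ranked peaks where the replicates were compared, with a highest signal of 23.5 and a highest score of 158. Its highest signals were 14.5 in replicate 1 and 8.98 in replicate 2. Skl had 2 ranked peaks in replicate 2, with a highest signal of 13.8 and a highest score of 60, and none in the other ranked lists. The values are far below the threshold score in each list.

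The density of the region depended on which peaks were counted. Replicate 1's own thresholded list had 7 summits in it, 1.70 times the density of 3L, and replicate 2's had 8, or 2.30 times, against 2.13 times in the conservative list. The density of 3L includes the stretch from 23032633 on, where all windows held 0 conservative summits. The ranked peaks, most of which are below the threshold, had 265 summits, or 966 per Mb against 1045 per Mb over 3L, a ratio of 0.925 where the replicates were compared. That ratio was 0.883 in replicate 1's ranked list and 1.18 in replicate 2's. The higher density was thus a property of the thresholded lists, more than of the ranked ones. The segments differed as well: 100.5 summits per Mb in the domain of hid, 78.2 between hid and grim, 11.0 between grim and rpr, and 26.2 between rpr and skl. The 4 other protein-coding genes of the region, CG7320, CheA75a, CG5103 and CG13700, had 0 summits in their domains, and among 10 non-coding RNA genes lncRNA:CR45937 had 2 and lncRNA:CR45936 had 1.

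**Figure D2:**
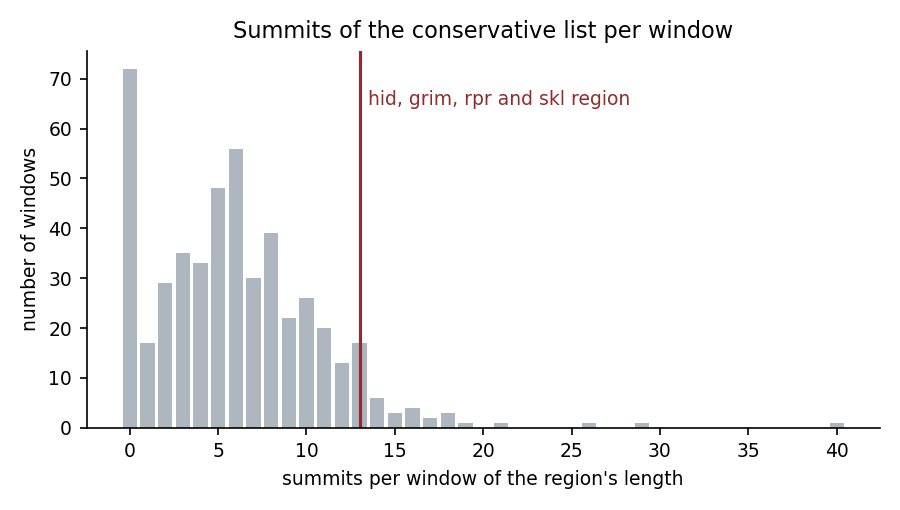
Number of windows (vertical axis) by the number of conservative summits in each (horizontal axis), for the 480 end-to-end windows of the region's length, with the region's 13 summits as a line. The line stands in the right tail, where 40 windows hold as many summits or more.

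The p53 gene (FBgn0039044, 3R 23049657 to 23054082, transcribed towards lower coordinates) had its summit nearly at the transcript start. Only 0.828% of protein-coding genes had a summit nearer to a start than its 19 bp. Hid and p53 were the 2 members with a summit within 500 bp of a start, which 10.6% of protein-coding genes had. The sequence below is the upstream part of the 101 bp around that summit, plus strand of Release 6, 5′ to 3′, and is shown for the 2 copies of TATCGATA (capitals), the DREF motif of many Drosophila housekeeping promoters. The capital letters AAG, with the letters before them, also spell GATAAG, so that match overlaps the first copy.
p53 promoter summit, chr3R:23054083-23054151: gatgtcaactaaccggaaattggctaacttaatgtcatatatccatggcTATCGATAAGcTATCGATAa

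This promoter summit had a signal of 73.2 and a score of 1000 in the conservative list, with 55.9% of peaks above it. Replicate 1 gave it 50.2 with a score of 1000, and replicate 2 gave it 22.9 with a score of 506, under the threshold. It thus passed in replicate 1 alone. The summit also falls in the domain of asRNA:CR46089, and peaks carry no strand. TATCGATA was found at 1.25% of all summits.

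Diap1 (FBgn0260635, 3L 16038410 to 16051034), the gene of the protein that the RHG group binds, had the member domain with the most summits. All 3 were intronic and lay together, at 16045507, 16045980 and 16046183, between 1339 and 663 bp from the nearest annotated start. The middle one was the strongest in any member domain, with a signal of 131 and 21.0% of the list above it, and the others had 62.9 and 88.2. The middle and last peaks overlap, and each replicate has a single peak there, so they may count 1 site. The sequence of the middle one, from the plus strand of Release 6, 5′ to 3′, is shown as the strongest member site and held none of the motifs searched.
Diap1 intron summit, chr3L:16045930-16046030: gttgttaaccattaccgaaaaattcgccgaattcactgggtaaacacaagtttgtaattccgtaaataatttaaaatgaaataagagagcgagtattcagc

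On its own scale, replicate 1 gave the strongest Diap1 site a signal of 61.2 with a score of 1000, with 0.851% of its ranked list above. Replicate 2 gave it 61.4 on a scale of its own, with a score of 825 and 0.51% of its ranked list above. Replicate 2 therefore missed the threshold by a few units of score, and of the thresholded lists of single replicates, that of replicate 1 alone holds the peak. The summit of replicate 1 was 23 bp below that of the conservative list, and that of replicate 2 was 136 bp above it. At the weaker summit, 16045507, the signals were 39.1 and 26.5 in replicates 1 and 2, with scores of 818 and 508.

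**Figure D3:**
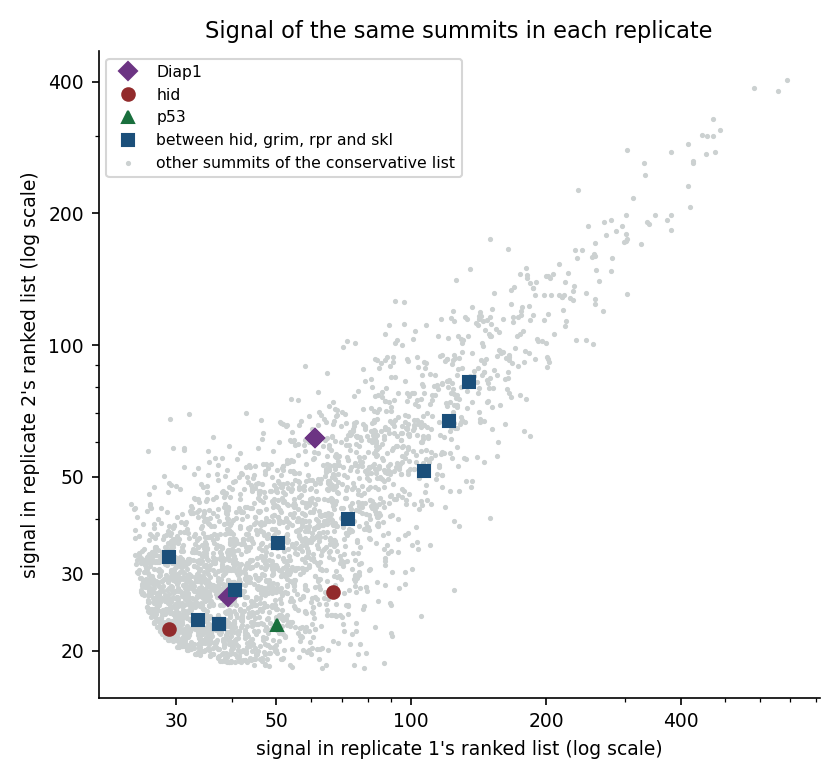
Signal of each conservative summit in the ranked list of replicate 1 (horizontal, log scale) and replicate 2 (vertical, log scale), for member and region summits in colour and all other summits in grey. The 2 overlapping Diap1 summits share a point at 61.2 and 61.4, 2 summits at 18274412 and 18274620 share another, and the summit at 18223673 is not drawn since replicate 1 has no peak there; the hid promoter and p53 lie on the lower side of the cloud, with 27.3 and 22.9 in replicate 2.

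Dark and the caspases had no summit in their domains in any thresholded list. Dark (FBgn0263864, 2R 17020027 to 17026703), the Apaf-1 relative of the fly apoptosome, came with 14 ranked peaks where the replicates were compared. Their highest signal was 40.4 and their highest score 641, which need not be of the same peak. Scores of Dark in single replicates were at most 95 in replicate 1 and 189 in replicate 2. Dcp-1 (FBgn0010501, 2R 23551313 to 23553547), an effector caspase, came nearest to the threshold. Where the replicates were compared its highest signal was 32.6 and its highest score 743, with 372 in replicate 1 and 443 in replicate 2. Its nearest conservative summit was 3155 bp from its start. The 2 genes thus stayed below the threshold in both replicates, with higher scores at Dcp-1 than at Dark.

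Dronc and Drice were also below the threshold in every list. For Dronc (FBgn0026404, 3L 9968479 to 9971002), the initiator caspase, the highest signal where the replicates were compared was 26.4. The highest score there was 66, with 51 in replicate 1 and 18 in replicate 2. The nearest conservative summit was 111921 bp from its start, and 95.6% of genes had a nearer one. Drice (FBgn0019972, 3R 29799658 to 29801584), the main effector caspase, had a top score of 138, with 182 in replicate 1 and 72 in replicate 2, and its nearest summit was at 3387 bp. Dark lay 6689 bp from its nearest summit. The median of this distance over all protein-coding genes was 14015 bp, so Drice, Dcp-1 and Dark were nearer than the median and Dronc far beyond it.

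**Figure D4:**
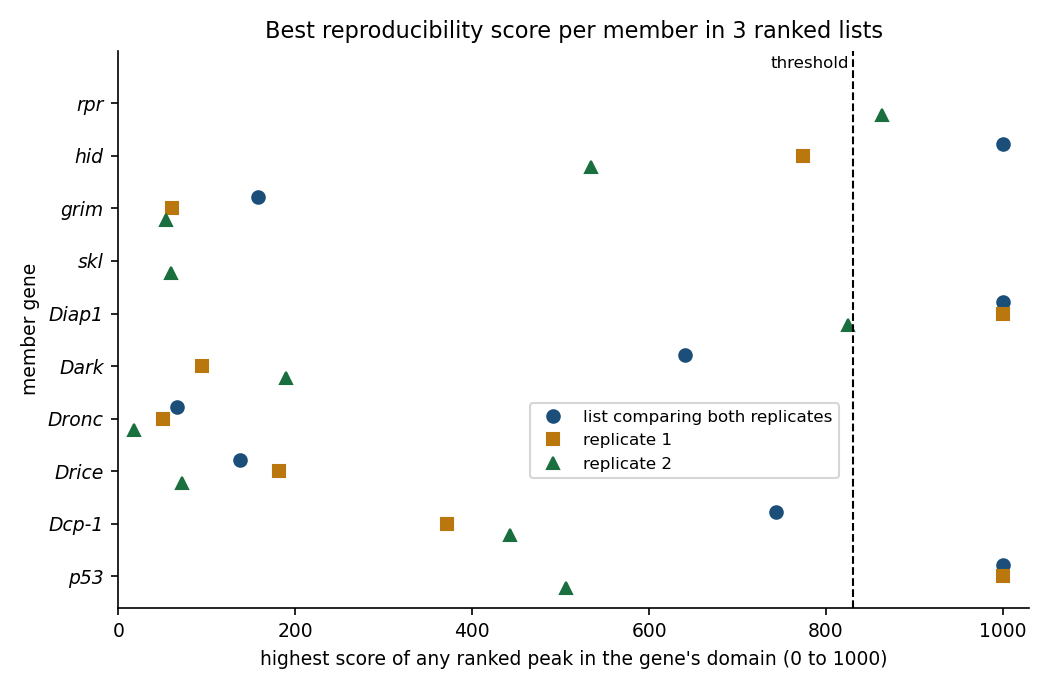
Highest score of any ranked peak in each member's domain (horizontal axis, 0 to 1000) in the list comparing both replicates and in each replicate's list, with the threshold score of 830 as a dashed line and no marker where a list has no peak. Hid, Diap1 and p53 reach 1000 where the replicates are compared, rpr has a marker in replicate 2 alone, at 863, and the caspases and Dark stay left of the line.

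Read by replicate, the member counts were small and named different genes. Replicate 1's thresholded list had a summit in 2 of 10 domains, those of Diap1 and p53, against 13.5% of all protein-coding genes. Replicate 2's had 1, that of rpr, against 11.9%. The second list across both replicates had the same 3 members as the conservative list, against 19.1%. No member domain held a summit past the threshold in both replicates' own lists. Of all 13968 protein-coding genes, 1258 had a conservative summit overlapped by a thresholded peak of each replicate. With 10 members, their lack of one does not set them apart. With the region included there were 17 conservative summits, and 5 of them (29.4%, exact binomial 95% interval 10.3 to 56.0) were overlapped by a thresholded peak of each replicate, against 40.5% of all 2883. All 5 lay between hid and rpr. In the ranked lists, replicate 1 had a peak at 16 of the 17 and replicate 2 at all 17, as at 99.4% and 99.5% of all summits, so this sets the 17 apart in no way.

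Replicate 1 had 9 thresholded peaks in the member domains and the region, and 4 of them, at Diap1, at p53, 18193085 and 18229500, passed the threshold in that replicate alone. Replicate 2 had 8, and 3 of them, at 18215835, the rpr start and 18403426, passed in that replicate alone. Most peaks of each were nonetheless in the conservative list, 7 of the 9 in replicate 1 and 7 of the 8 in replicate 2. Those of replicate 1 outside it were at 18193085, 7.44 kb upstream of hid, with a signal of 48.8, and at 18229500, 43.9 kb upstream, with a signal of 41.4. Replicate 2 had ranked peaks at those positions with scores of 18 and 140. The one of replicate 2 outside it was the peak at the start of rpr. Such shares over each replicate's full list were not counted, so these counts cannot set the loci apart from other peaks.

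Of the 17 summits, 11 (64.7%) were intergenic, against 15.6% of all summits, but the rule for the region selects intergenic sequence. In the member domains alone, 2 of 6 were at promoters and 4 in introns, against 44.2% and 38.0% of all. The core Senseless site AAATCA, sought on both strands within 50 bp, was found at 1 of the 17 (5.88%, exact binomial 95% interval 0.149 to 28.7), the hid intron summit, against 17.9% of all summits and 10.3% of windows of the same width 300 bp away. GATAAG, the site of GATA factors, was at 2 (11.8%) against 7.84%, and the homeodomain core TAATTA at 1 against 8.53%. These counts are too small to set the member summits apart from the list. Median GC content was 34.7%, from 20.8% to 52.5%, against 35.6% over all summits.

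Other genes that act in cell death, a list of 46 sorted by role, had a summit about as often as the members, of which 30% did. A summit lay in 15 of the 46 domains (32.6%), against 17.9% of protein-coding genes. By size, 9 of the 17 with domains of at least 10 kb had one, against 38.4% of such protein-coding genes. Of the 29 with shorter domains 6 did, against 13.8%. The list was chosen by role, with earlier results of these data known. None of the 3 other caspases (Strica, Dredd, Damm), the 3 other inhibitors (Diap2, Bruce, Det), the 2 Bcl-2 relatives (Buffy, Debcl) or the 4 Drep genes, the family of the caspase-activated nuclease and its inhibitor, had one. Mitochondrial factors had the most, 4 of 5. With 2 to 9 genes per group, these counts are too small to set a role apart from the background, and none was tested. Cyt-c-p, the somatic cytochrome c, had an intronic summit with AAATCA and a signal of 222, with 135 in replicate 1 and 85.1 in replicate 2. Cyt-c-d, its testis-enriched neighbour, had 189.5, 126 in replicate 1 and 64.5 in replicate 2, at a summit nearer the start of CG31808. EndoG and HtrA2 had promoter summits of 58.1 and 51.9, overlapped by no thresholded peak of either replicate. The EndoG summit is also in the domains of wash and asRNA:CR45264, and the HtrA2 summit in that of mRpL11. The cytochrome c pair outranked every summit in a core member's domain.

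In the signalling groups, 3 of 9 TNF and JNK pathway genes had a summit: Traf4, with a strongest signal of 81.5, puc, the JNK phosphatase, with 72.0, and the kinase Tak1, with 61.1. Of 5 DNA damage genes there were 2, the checkpoint kinases mei-41 (the fly ATR), with 143 at its promoter, and grp (the fly Chk1), with 51.7. The mei-41 summit is also in the domain of TH1, that of grp in the domain of CG31807, whose start is nearest, and that of puc in the domain of lncRNA:CR44331, whose start is nearest. The Traf4 summit is also in the domain of lncRNA:CR45363. Of 5 Hippo genes, wts had 97.3 and yki, the growth coactivator that raises Diap1 expression, had 60.3 at a summit shared with Gpat4. The ubiquitin ligase Ubr3 had 82.1 in an intron, and morgue, the other of that group, had 0 summits.

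Engulfment genes, which clear dying cells, had 3 of 8. NimC4, a phagocytic receptor, had a promoter summit of 149 that also lies in the domain of nAChRalpha5, ced-6, an engulfment adaptor, had 87.2 in an intron, and mbc, a Rac activator, had 5 summits, the strongest of 95.1 shared with Nup98-96. Of the 15 genes with a conservative summit, 7 had one overlapped by a thresholded peak of each replicate: Cyt-c-p, Cyt-c-d, Ubr3, mei-41, ced-6, NimC4 and mbc. Of the 3 core members with a summit, 0 did. Over all protein-coding genes with a conservative summit the share was 50.3%, close to that of the 15, and 3 genes are too few to be set apart from it.

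**Figure D5:**
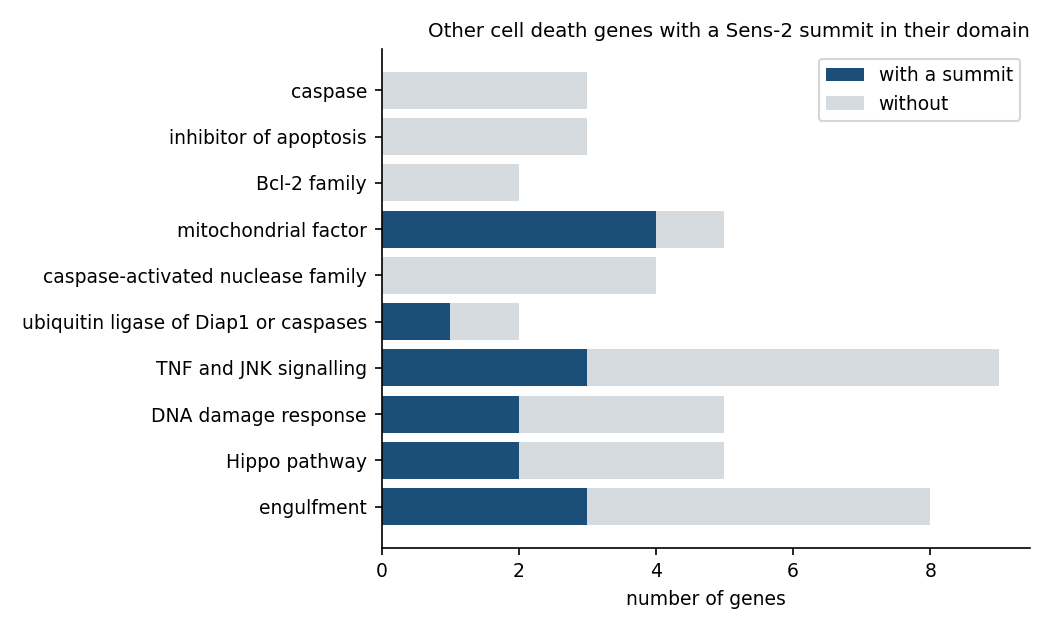
Number of other cell death genes (horizontal axis) in each role, split into those with a conservative summit in their domain (dark) and those without (light). Caspases, inhibitors of apoptosis, the Bcl-2 family and the nuclease family have no dark bar, and 4 of 5 mitochondrial factors do.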

How the data were processed

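Peak lists of 2 biological replicates were used, numbered by the labels, on dm6 per the labels. Peaks were called for each replicate from its own alignments and for both replicates together, per the text files deposited beside the lists. The names of the aligner and peak caller were not given in the sources used here. Read depth is unknown, so intervals cover counting of peaks only. The intervals also treat summits as independent, though overlapping peaks at Diap1 and between hid and grim may count the same site. The authors deposited a signal per peak, on that list's scale, and a score from the IDR, limited to 1000. Another deposited column of the ranked lists, −log10 of the IDR, was not analysed further. The conservative list was the main list, and its 16 peaks of 2899 on unplaced scaffolds were left out.

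Genes came from Ensembl release 115, and sequence from RefSeq's Release 6 genome, which shares dm6 coordinates. Where domains overlap, a summit was counted for every one. Promoter meant within 500 bp of a transcript start, followed in order by 5' UTR, coding, 3' UTR, intron and intergenic. Peaks of different lists were matched where they shared at least 1 bp. The hexamer AAATCA, the GATA site GATAAG, the DREF site TATCGATA and the homeodomain core TAATTA were sought on both strands in 101 bp around each summit, and the p53 decamer consensus as a tandem with a gap of at most 1 bp. The members, lists and motifs were chosen with earlier results of these data known. Named were all 10 members, every other cell death gene with a conservative summit, the nearest gene of each summit between the RHG genes, and groups without a summit. Python 3.11.15, pandas 2.3.3, NumPy 2.4.6, SciPy 1.17.1 and matplotlib 3.10.9 were used, and counting was checked on planted summits.

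Counts were repeated with the other thresholded list, single replicates, the stronger peaks by signal, other domains, promoter windows, overlap rules and motif windows.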

Additional observations from a re-analysis of the deposited data

How the results depend on the processing

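The other thresholded list, gene bodies alone, a region without skl, other overlap rules, other AAATCA windows and leaving out peaks of signal under 20, an alternative chosen after seeing the data, kept every count they touched within 1.5 times of the main one. The p53 call ended with gene bodies alone, its summit lying upstream of the start, and in the stronger part of the list, which each left 2 members, hid and Diap1. Of all protein-coding genes, 8.56% had a summit with gene bodies alone and 10.9% in the stronger part of the list. From single replicates' own lists, the members with a summit numbered 1 to 2 in place of 3, summits in their domains 1 to 2 in place of 6, summits of the region 7 to 8 in place of 13, and other cell death genes 9 to 10 in place of 15. The stronger part of the list gave 3 summits in member domains, 6 in the region and 9 other genes. With 5 kb upstream, 5 members had a summit, rpr and Dcp-1 being added, against 23.6% of all genes, and with summits assigned to the nearest start 5 did, rpr and grim being added, against 14.5%. Promoter summits numbered 1 within 250 bp and 4 within 1000 bp, in place of 2. The single-replicate lists held fewer peaks, 1960 and 1636 against 2883 in the conservative list, and unknown read depth limits what their absences show. No paired analysis was possible because there was 1 group.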
